A study of Mus musculus with 6 samples.

Results

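The corneal lineage transcription factors described here are 8 genes, Pax6, Klf4, Klf5, Klf6, Elf3, Ehf, Tfap2a and Tfap2b, taken by symbol from the 17866 genes of the deposited expression table. The rule that names them uses no measured value, although it was written with earlier results of these data known. All 8 were among the 13305 genes with enough counts to be tested. The libraries were 6 bulk RNA-seq libraries of separated corneal epithelium from C57BL/6 mice aged 6 months, 3 of them wild type (WT) and 3 labelled Rela-/- (KO). Rela encodes p65, the transactivating subunit of the transcription factor NF-κB. By the study's methods the KO mice were Krt14-Cre; Rela f/f, so that Cre was driven by the Krt14 promoter, which is active in the epithelia of the cornea, limbus, conjunctiva, meibomian glands, skin, oral mucosa and trachea, and the sample was therefore taken from 1 of several epithelia that lacked the gene. Each library came from an independent biological sample, and whether animals were pooled within a sample is not given in the sources used here.

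The corneal epithelium is built by a small set of DNA-binding proteins that act together on the same keratin, crystallin and barrier genes. Pax6 carries a paired domain and a homeodomain. It specifies the eye in the embryo, and in the adult it keeps the corneal epithelium from taking on the character of other stratified epithelia. Klf4, Klf5 and Klf6 are zinc finger proteins of the Krüppel-like family, Elf3 and Ehf are ETS factors of the epithelium-specific group, and Tfap2a and Tfap2b encode the AP-2 proteins α and β, which act early in surface ectoderm, lens and neural crest. In textbook accounts these factors are needed for the stratification, the maturation and the barrier of the ocular surface.

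Library totals lay between 20158404 and 20880347 estimated counts, so a floor of 3 counts stood at 0.137 to 0.152 CPM (counts scaled to a common library total with the TMM factors of edgeR) and covers counting error only. All 8 factors were above this floor in every library. As a check of the labels, Rela had 85.7, 85.8 and 87.8 CPM in WT and 16.1, 11.2 and 15.6 CPM in KO. The KO libraries thus all lay below the WT libraries, and 16.5% of the WT level was left. The labelled tissue was checked against marker lists. All 6 corneal epithelial markers were lower in KO, and their summed level went from between 93838 and 96554 CPM in WT to between 21626 and 24695 CPM in KO. All 5 conjunctival and goblet cell markers were higher (1874 to 2900 CPM summed in WT, 52209 to 66926 CPM in KO), as were 4 of the 5 epidermal markers tested, with Ivl lower (28.5 to 39.4 CPM, 10153 to 22721 CPM). The conjunctival and goblet cell sum was mostly Krt13 and Krt4, with KO means of 38248 and 21745 CPM. Krt13 already had a mean of 1972 CPM in WT. In KO the means of Krt19, Spdef and Muc5ac were 224.5, 8.22 and 6.19 CPM. The epidermal marker Krt2 was at or under 3 counts in every library. Leukocyte markers summed to between 5.44 and 11.7 CPM in WT and between 53.9 and 92.4 CPM in KO, and stromal markers to at most 1.4 CPM and at most 9.83 CPM, with all 4 leukocyte and all 3 stromal markers that could be tested higher. Endothelial, melanocyte, lens and retina markers each summed to at most 9.66 CPM in any library. In bulk RNA, fewer cells of a type and less RNA per cell cannot be told apart. The part of these marker shifts in the values of the 8 factors was not tested.

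Among the 8 factors, 2 fell, 2 rose and 4 did not pass the test. Pax6 and Elf3 were lower in KO, at 34.4% and 46.8% of their WT levels. Klf6 was 1.4-fold and Tfap2b 4.34-fold higher. Klf4, Klf5, Ehf and Tfap2a did not pass an adjusted p of 0.05. This is 4 of 8 factors called, where 62.0% of all 13305 genes tested were called by the same rule (edgeR quasi-likelihood test, Benjamini-Hochberg adjustment). Split by direction, 31.8% of all genes tested were called up and 30.2% were called down. The median log2 fold change was -0.04 over the 8 factors and 0.01 over all genes tested. At the threshold of the study, an adjusted p of at most 0.001 with a change of at least 2-fold, the factors called were Pax6 and Elf3, that is 2 of 8, against 19.8% of all genes. The WT and KO values in CPM did not overlap for Pax6, Klf6, Elf3 and Tfap2b, which is 4 of 8 factors against 68.6% of all genes. In the deposited FPKM (level per length and library total) Klf6 did overlap, with WT replicate 3 at 39.3 and KO replicate 1 at 38.7. Klf4 did not overlap in FPKM, with KO at most 349 and WT at least 382. Of the 1030 genes tested that the table marks as transcription factors, 59.0% were called, 186 higher and 422 lower, with a median log2 fold change of -0.25. This lean to lower values was present under every scaling tried, with 117 higher and 646 lower on the log2(TPM + 1) scale. Read against these backgrounds, the number of factors called is not a result about the group.

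**Figure D1:**
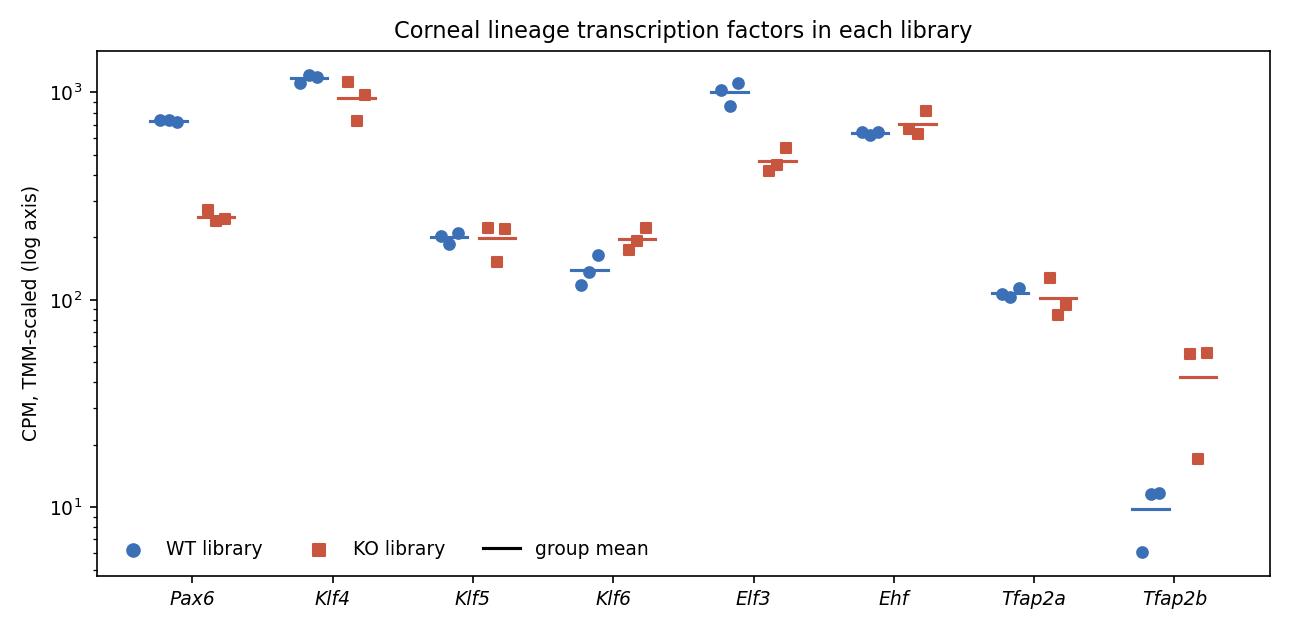
Normalised level of the 8 factors in every library, in CPM scaled by TMM factors on a log axis, with circles for the 3 WT libraries, squares for the 3 KO libraries and a short line for each group mean. The WT and KO points are apart for Pax6, Klf6, Elf3 and Tfap2b and overlap for Klf4, Klf5, Ehf and Tfap2a, and the KO points of Tfap2b spread from 17.1 to 55.6 CPM.

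Promoter windows are shown for the 4 factors whose level differed, because the deleted gene encodes a DNA-binding protein whose binding sequence can be looked for in them. Each window runs from 250 bases before a transcription start to 50 bases after it, was taken from RefSeq on GRCm38.p6 and is printed 5′ to 3′ on the strand of the gene. Capitals mark matches, on either strand, to the loose NF-κB (kappa-B) pattern GGGNNNNNCC. Such a match is a description of letters and not evidence of binding. The Pax6 window is chr2:105668646-105668945 on the plus strand, the Elf3 window chr1:135258423-135258722 on the minus strand, the Klf6 window chr13:5861239-5861538 on the plus strand and the Tfap2b window chr1:19211804-19212103 on the plus strand, which lies downstream of the first base that the table gives for Tfap2b.
Pax6: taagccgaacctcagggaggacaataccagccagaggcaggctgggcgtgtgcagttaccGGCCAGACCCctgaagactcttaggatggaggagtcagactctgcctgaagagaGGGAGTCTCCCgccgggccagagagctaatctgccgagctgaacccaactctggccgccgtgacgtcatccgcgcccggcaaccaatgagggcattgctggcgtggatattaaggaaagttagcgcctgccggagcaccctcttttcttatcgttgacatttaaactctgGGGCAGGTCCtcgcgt
Elf3: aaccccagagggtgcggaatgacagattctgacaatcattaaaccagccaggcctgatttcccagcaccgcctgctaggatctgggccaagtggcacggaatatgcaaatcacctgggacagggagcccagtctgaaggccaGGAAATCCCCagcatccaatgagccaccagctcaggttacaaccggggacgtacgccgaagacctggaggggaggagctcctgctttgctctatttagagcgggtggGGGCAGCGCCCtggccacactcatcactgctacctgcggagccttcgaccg
Klf6: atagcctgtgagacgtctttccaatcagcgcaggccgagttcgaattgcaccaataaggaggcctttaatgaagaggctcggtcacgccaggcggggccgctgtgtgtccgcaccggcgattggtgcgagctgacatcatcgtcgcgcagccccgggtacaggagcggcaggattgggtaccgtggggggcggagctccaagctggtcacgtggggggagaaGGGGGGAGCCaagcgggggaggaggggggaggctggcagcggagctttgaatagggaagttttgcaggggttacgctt
Tfap2b: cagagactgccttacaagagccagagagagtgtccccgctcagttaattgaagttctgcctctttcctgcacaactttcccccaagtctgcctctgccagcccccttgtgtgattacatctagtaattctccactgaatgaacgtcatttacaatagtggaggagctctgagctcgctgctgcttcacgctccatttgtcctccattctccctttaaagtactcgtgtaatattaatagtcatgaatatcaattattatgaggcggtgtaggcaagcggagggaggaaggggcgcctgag

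The loose pattern was common and had a match in 50.8% of all 32851 windows of this length. The Pax6 window held 4 matches, the Elf3 window 3, the Klf6 window 1 and the Tfap2b window 0. Several of these overlap each other on opposite strands, so the capitals in Elf3 at the start site are 2 matches. The stricter kappa-B consensus GGGRNYYYCC (R is A or G, Y is C or T) was searched after the looser matches had been seen. It was present in 5.8% of all windows. It matched the site GGGAGTCTCC of Pax6, which begins 136 bases before the start, and the site GGAAATCCCC of Elf3, which begins 108 bases before the start and reads on the opposite strand. It had no match in the windows of Klf4, Klf6, Tfap2a or Tfap2b. As this pattern was chosen with the first matches known, its matches only describe the windows, and a link to the levels was not tested. For Klf4, 5 loose matches stood in a window of 74.3% GC, a content above that of 96% of all windows, whose median GC was 52.7%. The first of the 2 Tfap2a windows held 1 loose match, the other none, and a downstream Pax6 window, chr2:105682213-105682512, also held none. RefSeq windows for Klf5 and Ehf were not used here.

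Binding letters of the factors' own families were searched in the same windows. The KLF pattern CCNCNCCC, found in 49.5% of all windows, had 9 matches in the Klf4 window, 3 in that of Klf6, 2 in that of Elf3 and 1 in the first Pax6 window. It also had 4 matches in the downstream Tfap2a window. The AP-2 pattern GCCNNNGGC was rarer, at 16.6% of all windows, and matched once in the Pax6 window and once in that of Klf4. The ETS pattern CCGGAAG, at 8.9% of all windows, matched in none of the members' windows. KLF and kappa-B matches overlap in the GC-rich Klf4 window, so its counts are not independent of each other.

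Pax6 fell the most of the 8 factors, and in CPM it was also the one whose replicates lay closest together. Pax6 (gene 18508, plus strand of chromosome 2, GRCm38 positions 105668896 to 105702583) had WT counts of 15998, 15848 and 15150 and KO counts of 5331, 4762 and 4902. In normalised units these were 733, 737 and 717 CPM in WT and 270.0, 239 and 244 CPM in KO. Every KO library was thus below every WT library, and the coefficient of variation was 1.43% in WT and 6.63% in KO. In WT that of Ehf was close, at 1.49%, and in FPKM it was lower for Ehf (2.48%) than for Pax6 (3.45%). The means of Pax6 were 729 ± 10.5 CPM and 251 ± 16.6 CPM (SD, n = 3 per group). The log2 fold change was -1.54 (SE 0.098, edgeR adjusted p = 5.92e-06), with a 95% interval of -1.76 to -1.31. This difference stood at percentile 5.2 of all genes tested and at percentile 5.6 of the transcription factors. Over 17 alternative fits Pax6 was called in 17, with log2 fold changes of -1.88 to -1.41.

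The length over which Pax6 reads were spread changed little. Its effective length was worked out from the deposited counts, FPKM and library totals. It was 3700 bases in WT and 3735 bases in KO, a difference of 0.94%. The group means of the other factors moved by between -0.52% and 0.41%, with Klf4, Klf5 and Klf6 each at 0.32%. Single libraries of Tfap2b differed by more, from 5318 to 5841 bases within WT. Whether these differences come from the mix of transcripts was not tested. The interval in the table runs past the GENCODE M21 end of Pax6, at 105697364, into the span of Elp4, which begins at 105701027. The GENCODE exons of Pax6 share no bases with those of Elp4 or of the antisense gene Pax6os1. For Elp4 this could not be otherwise, as its span lies wholly past that end. Whether the interval in the table covers exon bases of Elp4 was not tested. Estimated counts of Pax6 were not whole in any of the 6 libraries, so some of its reads were divided between it and other loci.

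The other PAX genes were close to absent. Of the 7 PAX genes in the table, Pax6 and Pax9 had enough counts to be tested. Pax9, known from pharyngeal and oral epithelium, had WT counts of 10, 12 and 11 and KO counts of 47, 68 and 82, and the log2 fold change was 2.67 (SE 0.301, edgeR adjusted p = 1.17e-04). Its level in KO was 0.81 FPKM, against 65.0 FPKM for Pax6 in the same libraries, so Pax6 was the leading PAX gene by level per length in both genotypes. Pax1, Pax2, Pax3, Pax4 and Pax8 were each below 0.12 CPM on average in both groups, and Pax5 and Pax7 were not analysed here.

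Elf3 fell by more than the spread between libraries. It is a regulator of terminal differentiation in stratified and simple epithelia. Elf3 (gene 13710, minus strand of chromosome 1, 135253574 to 135258565) had 1024, 865 and 1115 CPM in WT and 416, 448 and 541 CPM in KO. The highest KO library stayed below the lowest WT library. The means were 1001 ± 127 CPM and 469 ± 65.1 CPM (SD, n = 3 per group), and the log2 fold change was -1.10 (SE 0.143, edgeR adjusted p = 2.66e-04), with a 95% interval of -1.42 to -0.77. All 17 alternative fits called it lower, with values from -1.44 to -1.0. An antisense gene, Gm26642, shares 162 exon bases with Elf3, and whether the counting used strand is not given in the sources used here.

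Ehf, the close relative of Elf3, did not pass the test. It promotes differentiation in the corneal epithelium. Ehf (gene 13661, minus strand of chromosome 2, 103263431 to 103303275) had 641, 625 and 641 CPM in WT and 667, 628 and 818 CPM in KO, so the groups overlapped and only KO replicate 3 stood clearly above the WT values. The log2 fold change was 0.15 (SE 0.122, edgeR adjusted p = 0.319), with a 95% interval of -0.13 to 0.43. That interval leaves room for a rise of up to 1.34-fold and does not reach the interval of Elf3. Ehf was called in 0 of 17 alternative fits. Its sign turned to -0.20 on the log2(TPM + 1) scale. With an offset for gene length it rose to 0.32, at the edge of the threshold (edgeR adjusted p = 0.0512).

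Across the ETS family the directions were mixed. Of the 18 other ETS genes tested, 4 rose and 8 fell, with a median log2 fold change of -0.12, and on the log2(TPM + 1) scale the counts were 3 and 9. The 66.7% called is near the 62.0% of all genes and the 59.0% of transcription factors, and the excess of falls is of the kind seen over all transcription factors. Spdef, the factor of goblet cells, had WT counts of 3, 6 and 7 and KO counts of 216, 70 and 205, and the log2 fold change was 5.01 (SE 0.550, edgeR adjusted p = 1.00e-04). Elf5, a close relative of Elf3 and Ehf in the epithelium-specific group, had 15.3, 19.0 and 15.8 CPM in WT and 95.9, 62.0 and 103 CPM in KO, and the log2 fold change was 2.38. Elf3, Ehf and Elf5 therefore differed in direction, with Elf3 lower, Elf5 higher and Ehf not called. Ets1 rose by 1.29 on the log2 scale from between 1.85 and 3.30 CPM. The largest falls were in Etv1 (-1.78), Etv5 (-1.29) and the repressor Erf (-0.80), and the first of these was low at 2.34 to 3.54 CPM in WT. Erg and Fev were not analysed here.

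Klf4 did not pass the test. It is needed for the maturation and barrier of the corneal epithelium. Klf4 (gene 16600, minus strand of chromosome 4, 55527137 to 55532475) had 1111, 1219 and 1189 CPM in WT and 1124, 732 and 967 CPM in KO. In CPM, KO replicate 1 lay within the WT range, whereas KO replicates 2 and 3 lay below it. In FPKM every KO library lay below the WT libraries, at 349, 236 and 303 against 382, 412 and 393. The means were 1173 ± 56.1 CPM and 941 ± 197 CPM (SD, n = 3 per group), and the log2 fold change was -0.32 (SE 0.159, edgeR adjusted p = 0.113), with a 95% interval of -0.68 to 0.05. Klf4 was called lower in 5 of 17 alternative fits, among them total counts without composition factors (-0.42, adjusted p = 0.0343) and the fit without KO replicate 1 (-0.46, adjusted p = 0.0298). With total counts the median of all genes was itself -0.09, and relative to it Klf4 stood at -0.33, close to its main value.

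Klf5 was at almost the same mean level in both genotypes. It sustains proliferation and maturation of the ocular surface epithelium. Klf5 (gene 12224, plus strand of chromosome 14, 99298682 to 99313412) had 204, 187 and 209 CPM in WT and 223, 152 and 220 CPM in KO. The WT values fell between the KO values, of which replicate 2 was the lowest of all 6. The log2 fold change was -0.01 (SE 0.149, edgeR adjusted p = 0.955), and its 95% interval, -0.35 to 0.33, leaves room for levels from 0.783-fold to 1.26-fold of WT.

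Klf6 was the KLF member that rose, and its call rested on single libraries. It responds to injury in many tissues. Klf6 (gene 23849, plus strand of chromosome 13, 5861489 to 5870393) had 118, 137 and 165 CPM in WT and 173, 192 and 222 CPM in KO. In CPM the groups did not overlap, but the highest WT library was close to the lowest KO library. In FPKM they overlapped, with WT replicate 3 at 39.3 and KO replicate 1 at 38.7. The means were 140 ± 24.1 CPM and 196 ± 24.6 CPM (SD, n = 3 per group), and the log2 fold change was 0.48 (SE 0.145, edgeR adjusted p = 0.0185), with a 95% interval of 0.15 to 0.82. Klf6 was called in 14 of 17 alternative fits. The call was lost without WT replicate 1 (0.38, adjusted p = 0.0605), without KO replicate 3 (0.38, adjusted p = 0.0663) and on the log2(TPM + 1) scale (0.15, adjusted p = 0.311).

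Of the 11 other KLF genes tested, 5 rose and 3 fell, with a median log2 fold change of 0.44, and on the log2(TPM + 1) scale 5 rose and 4 fell. The 72.7% called, from 11 genes, is near the 62.0% of all genes and the 59.0% of transcription factors. Klf12, known as a repressor of the Tfap2a gene, had WT counts of 4, 7 and 5 and KO counts of 880, 800 and 809, and the log2 fold change was 7.36 (SE 0.181, edgeR adjusted p = 1.14e-07). Klf8 had WT counts of 6, 8 and 8 and KO counts of 103, 98 and 86, and the log2 fold change was 3.79. Klf15 had WT counts of 5, 11 and 5 and KO counts of 52, 71 and 58, and the log2 fold change was 3.19. These 3 were low in WT and did not approach Klf4 in KO, where Klf12 had 3.91 FPKM and Klf4 296 FPKM. Klf3, one of the more abundant members at 579 to 615 CPM in WT, was at 292 to 433 CPM in KO, and the log2 fold change was -0.72 (SE 0.146, edgeR adjusted p = 0.00268). Klf2 (-0.97) and Klf16 (-0.46) were the other KLF genes that fell. Klf18 was not analysed here.

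Tfap2a was not called. It acts in surface ectoderm and lens development and in keratinocytes. Tfap2a (gene 21418, chromosome 13, positions 40715302 to 40739021) had 107, 103 and 113 CPM in WT and 127, 84.5 and 94.8 CPM in KO. One KO library lay above and the others below all WT libraries. The log2 fold change was -0.08 (SE 0.146, edgeR adjusted p = 0.671), with a 95% interval of -0.41 to 0.26. The table places Tfap2a on the plus strand, whereas GENCODE M21 gives the minus strand and an end at 40738376. The end in the table is that of the antisense gene Gm47067. Antisense genes share exon bases with Tfap2a, 380 for Gm26688, 265 for Gm47061 and 73 for Gm47067, and without strand their reads cannot be told apart from those of Tfap2a.

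Tfap2b was the least abundant of the factors and rose by the largest fold. It is known from neural crest and kidney and is needed for the anterior segment of the eye. Tfap2b (gene 21419, plus strand of chromosome 1, 19208914 to 19238845) had WT counts of 133, 249 and 248 and KO counts of 1085, 340 and 1116. These were 6.09, 11.6 and 11.7 CPM in WT and 55.0, 17.1 and 55.6 CPM in KO. All KO libraries lay above the WT libraries, and KO replicate 2 stood closer to the WT values than to the other two KO values. The means were 9.81 ± 3.22 CPM and 42.5 ± 22.1 CPM (SD, n = 3 per group). The log2 fold change was 2.12 (SE 0.442, edgeR adjusted p = 0.00325), with a 95% interval of 1.10 to 3.13, that is 2.15-fold to 8.75-fold. It was called in all 17 alternative fits, with log2 fold changes from 1.44 on the log2(TPM + 1) scale to 2.49 without KO replicate 2. The remaining AP-2 genes tested, Tfap2c (-0.07, edgeR adjusted p = 0.517) and Tfap2e (-0.11, adjusted p = 0.713), were not called, that is 0 of 2, but Tfap2c was called lower on the log2(TPM + 1) scale (-0.40, limma adjusted p = 0.00442). Tfap2d was not analysed here.

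**Figure D2:**
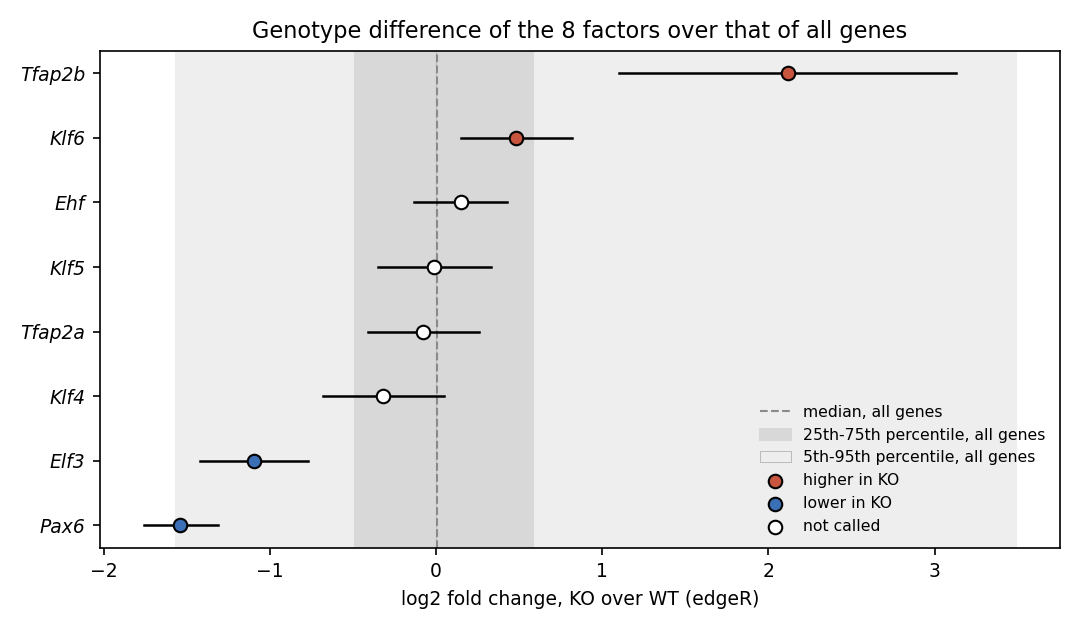
log2 fold change of each factor, KO over WT, with its 95% interval (points and lines), over the distribution of all 13305 genes tested, whose 5th to 95th percentiles run from -1.57 to 3.49 (light band), 25th to 75th percentiles from -0.49 to 0.58 (darker band) and median is the dashed line. The intervals of Pax6 and Elf3 lie below 0 and those of Klf6 and Tfap2b above it, and the point of Pax6 is just inside the lower edge of the light band.

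Members of one family were compared within each library, as ratios of FPKM, the deposited level per length and library total. The ratio of Elf3 to Ehf was 3.60, 3.12 and 3.92 in WT and 1.4, 1.61 and 1.49 in KO, so the groups were far apart and Elf3 was still the higher of the pair. Its log2 difference was -1.24, from 1.82 ± 0.167 to 0.58 ± 0.10 (SD, n = 3 per group). The ratio of Tfap2a to Tfap2b went from 28.3, 15.5 and 17.2 in WT to 3.96, 8.41 and 2.87 in KO, a log2 difference of -2.10. The ratio of Klf4 to Klf6 went from 13.1, 12.4 and 10 to 9.01, 5.32 and 6.06, a log2 difference of -0.83. The ratio of Klf4 to Klf5 was lower in every KO library than in any WT library, at 2.67 ± 0.180 against 3.31 ± 0.318, a log2 difference of -0.31. The ratio of Klf5 to Klf6 overlapped between the groups (3.60 ± 0.611 in WT, 2.53 ± 0.612 in KO). The first 4 ratios each had p = 0.1 in a two-sided exact permutation test, and p = 0.125 after adjustment over the 5 pairs. The exact p of the last ratio was 0.2. With 3 libraries against 3 no p below 0.1 is possible, so the test could not pass the threshold for any pair.

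**Figure D3:**
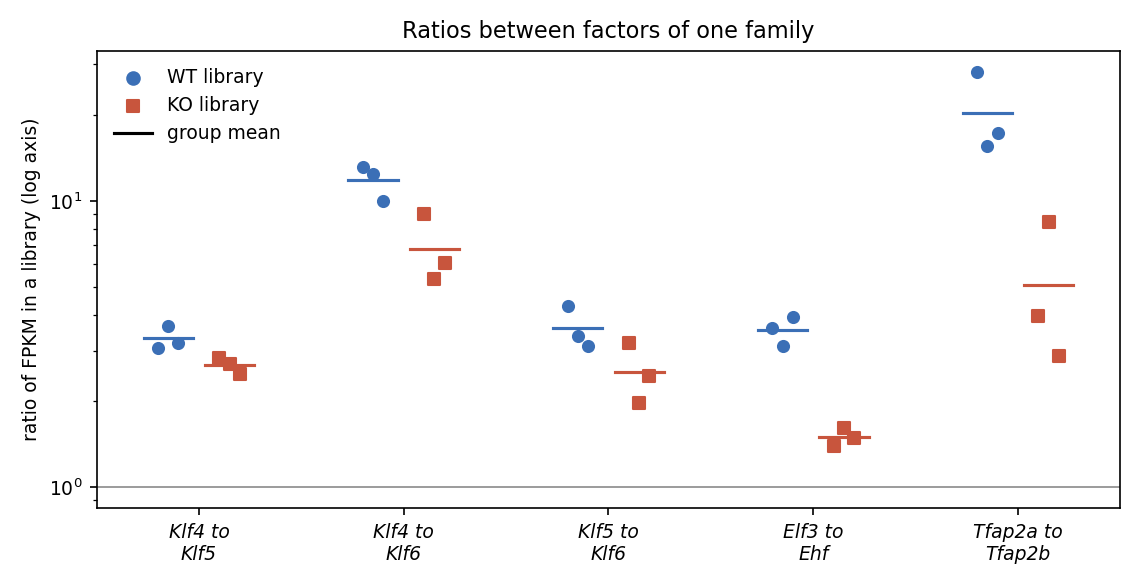
Ratio of the FPKM of 2 factors of the same family in each library on a log axis, with circles for WT, squares for KO, short lines for the group means and a horizontal line at equal levels. The WT and KO points are apart for Elf3 to Ehf, Tfap2a to Tfap2b, Klf4 to Klf6 and Klf4 to Klf5, and overlap for Klf5 to Klf6.

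By level per length the order of the factors differed between the genotypes. In WT, Elf3 was highest at 526 ± 62.9 FPKM, followed by Klf4 at 396 ± 15 FPKM, Pax6 at 204 ± 7.03 FPKM, Ehf at 148 ± 3.68 FPKM and Klf5 at 120 ± 6.74 FPKM (SD, n = 3). Klf6 at 33.9 ± 5.13 FPKM and Tfap2a at 33.8 ± 1.26 FPKM overlapped, and in TPM their order was the reverse. Tfap2b was last at 1.78 ± 0.492 FPKM. In KO, Klf4 at 296 ± 56.6 FPKM and Elf3 at 230.0 ± 32.0 FPKM overlapped. They were followed by Ehf at 153 ± 20.6 FPKM, Klf5 at 111 ± 20.4 FPKM, Pax6 at 65.0 ± 3.06 FPKM, Klf6 at 44.3 ± 5.66 FPKM, Tfap2a at 29.9 ± 5.91 FPKM and Tfap2b at 7.29 ± 3.71 FPKM, each without overlap with the next. Pax6 thus moved from a place above Ehf and Klf5 to one below both.

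**Figure D4:**
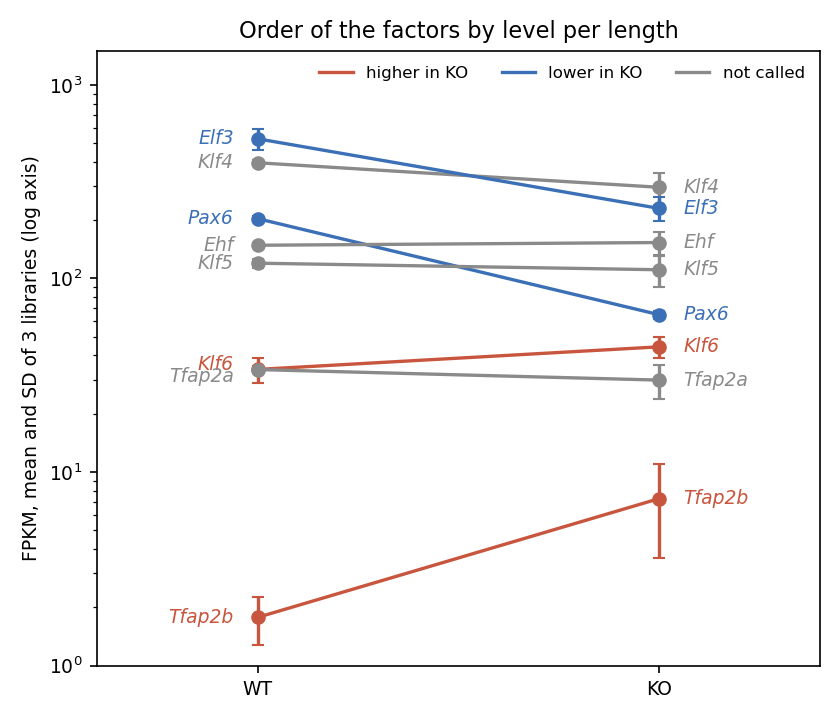
Mean FPKM of each factor in WT and KO on a log axis, with bars for the SD of 3 libraries and lines joining the genotypes. Pax6 crosses below Ehf and Klf5, and Elf3 goes from above Klf4 in WT to overlapping with it in KO.

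Among the 1361 transcription factor genes of the table, Elf3 ranked 1 by mean FPKM in WT, Klf4 ranked 4 and Pax6 ranked 6. In KO, Klf4 ranked 3, Elf3 ranked 4 and Pax6 ranked 33. Tfap2b went from rank 762 to rank 365. The 8 factors summed to 1464 ± 57.4 FPKM in WT and 936 ± 100 FPKM in KO. Within that sum the share of Pax6 went from 13.9% ± 0.884 to 6.99% ± 0.743 and that of Elf3 from 35.9% ± 2.95 to 24.7% ± 3.48 (SD, n = 3). The share of Ehf went from 10.1% ± 0.381 to 16.4% ± 1.41 and that of Klf6 from 2.31% ± 0.326 to 4.76% ± 0.708. A share in a sum can move because another factor moved, and Ehf itself was not called.

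The spread between KO libraries was common to several factors. KO replicate 2 held the lowest CPM of the KO libraries for 6 of the 8 factors (Pax6, Klf4, Klf5, Ehf, Tfap2a and Tfap2b), whereas it was the lowest for 34.5% of all genes tested. For Pax6 this was close to a tie with KO replicate 3 (239 against 244 CPM). In FPKM the order of these libraries was the reverse for Pax6 (63.33 in replicate 2, 63.07 in replicate 3). For the remaining factors, Klf6 and Elf3, KO replicate 1 was the lowest. The ratio of the highest to the lowest KO library was 3.26 for Tfap2b, 1.53 for Klf4, 1.51 for Tfap2a and 1.46 for Klf5, and 1.13 for Pax6. In WT these ratios were 1.93 for Tfap2b, 1.41 for Klf6 and at most 1.29 for the others.

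The remaining regulators of the ocular surface and the corneal genes tied to these factors were counted as whole lists. Of 14 other regulators tested, 3 rose and 7 fell, with a median log2 fold change of -0.38, and on the log2(TPM + 1) scale 3 rose and 9 fell. The 71.4% called and the lean to falls are near the backgrounds, 62.0% of all genes called and a median of -0.25 over transcription factors. Pitx1, a homeobox factor of hindlimb and oral epithelium, had 1.51, 2.14 and 0.663 CPM in WT and 250, 165 and 179 CPM in KO, and the log2 fold change was 7.10 (SE 0.334, edgeR adjusted p = 1.54e-06). In KO it reached 81.6 FPKM, above the 65.0 FPKM of Pax6 in the same libraries. Ovol1 rose by 1.64 and Grhl3, a factor of the epidermal barrier, by 0.86 on the log2 scale. Ovol2, which maintains corneal epithelial identity, had 10.3, 11 and 10.9 CPM in WT and 3.54, 4.51 and 5.58 CPM in KO, and the log2 fold change was -1.24 (SE 0.178, edgeR adjusted p = 4.37e-04). Hes1, a Notch target (-0.89), and Sox9, a factor of limbal progenitors (-0.79), were the next largest falls. Trp63, the master factor of stratified epithelia, was at 278, 286 and 231 CPM in WT and 279, 265 and 270.1 CPM in KO and was not called (0.03, edgeR adjusted p = 0.797), but it was called lower on the log2(TPM + 1) scale (-0.37, limma adjusted p = 0.0324), where the median of all genes was -0.28.

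Of the 11 corneal epithelial genes that these factors are known to act on or that mark the layer they specify, 7 fell and 1 rose, with a median log2 fold change of -1.41 against 0.01 over all genes tested. The 72.7% called stands beside 62.0% of all genes. On the log2(TPM + 1) scale 8 fell and 1 rose, where over all genes 6350 fell and 2754 rose. The list shares 5 genes with the corneal marker list, so it repeats part of that result. Krt12, the cornea-specific keratin and a target of both Pax6 and Klf4, had 36079, 37750 and 35785 CPM in WT and 5555, 7770 and 8038 CPM in KO, and the log2 fold change was -2.36 (SE 0.174, edgeR adjusted p = 1.29e-05). Tkt (-3.04) and Aldh3a1 (-2.38), metabolic enzymes stored at crystallin levels in the cornea, fell by similar or larger amounts. Dsg1b, a desmosomal cadherin, was the gene that rose (2.42), and reads shared with its close paralog Dsg1a (-0.38, not called) leave both values uncertain.

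**Figure D5:**
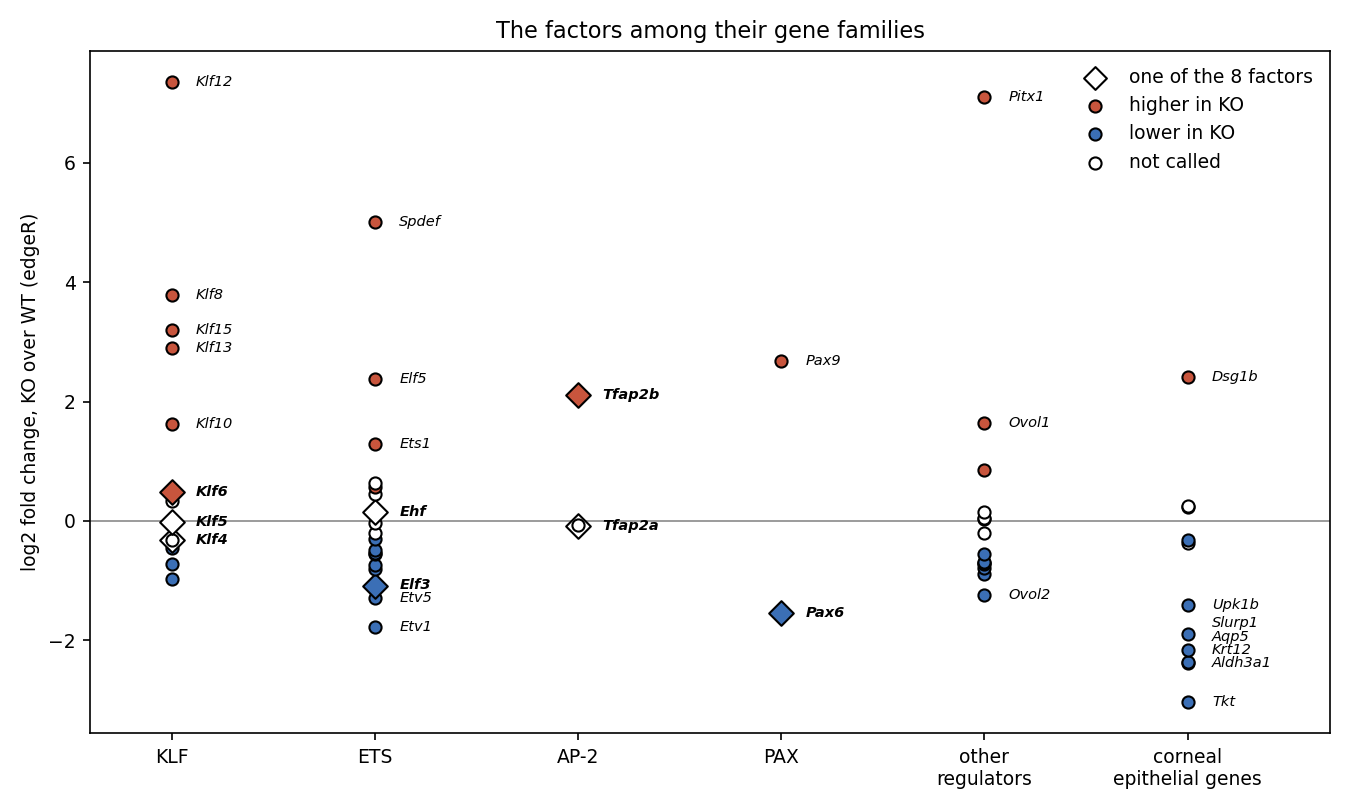
log2 fold change, KO over WT, of every tested gene in the KLF, ETS, AP-2 and PAX families, the other ocular surface regulators and the corneal epithelial genes, with diamonds for the 8 factors, filled symbols for called genes and open symbols for the rest. Pax6 and Elf3 are filled below 0, Klf6 and Tfap2b filled above 0, and Klf12, Pitx1 and Spdef lie at 7.36, 7.10 and 5.01.

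For each factor the 3 genes of the most like pattern over the 6 libraries were found among 9029 genes, as the distance between centred log2 CPM values, where 0 is an identical pattern. For Pax6 these were Pbxip1 (distance 0.081), Ppp2r5b (0.105) and Khnyn (0.130). Pbxip1 had 83.4, 81.7 and 85.2 CPM in WT and 31.6, 27.8 and 27.9 CPM in KO, and like Pax6 it was highest among the KO libraries in replicate 1. For Elf3 they were Dtx3l (0.134), Id2 (0.150) and Usp12 (0.151), and for Klf6 they were 1700123O20Rik (0.098), 1110059E24Rik (0.157) and Sub1 (0.175). For Tfap2b the nearest genes, Osr2 (0.730), Hk2 (0.926) and Pla2g4b (0.970), stood at larger distances. This distance can grow with the spread of a factor over the libraries, which was widest for Tfap2b. Distances are therefore not compared between factors. Osr2 had 13.3, 24.9 and 27.1 CPM in WT and 123, 65.9 and 125 CPM in KO, with the same low WT replicate 1 and low KO replicate 2 as Tfap2b. The nearest genes of the factors that were not called were Bcl9l for Klf4 (0.111), Ece1 for Klf5 (0.131), Pip4p2 for Ehf (0.105) and Kmt2b for Tfap2a (0.122). The CPM of Bcl9l in KO was 133, 82.1 and 107, the same order of libraries as Klf4. All these genes were picked for likeness over the same 6 libraries, so a shared order of libraries follows largely from the choice. With Pearson's correlation in place of the distance, 2 of the 3 genes stayed for Klf6 and at most 1 for each of the others, so most of these names depend on the measure of likeness.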

How the data were processed

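RNA-seq of 6 corneal epithelium libraries (3 WT, 3 KO) was analysed from the deposited gene table. The 8 factors, the lists and the tests were chosen with earlier results of these data known.

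By the study's methods and the submitters' processing notes, the authors depleted ribosomal RNA, sequenced short single-end reads on a BGI instrument, filtered them with SOAPnuke, aligned them with Bowtie2 2.2.5 and quantified genes with RSEM 1.2.12. The labels name an Illumina kit and build mm9, but the coordinates in the table are those of GRCm38. The deposited values are RSEM estimated counts, of which 30.4% to 32.3% per library were not whole, FPKM by the authors, and TPM by the authors. RSEM divides reads that fit several loci, so counts of genes with relatives are estimates. The table also holds the authors' own fold changes and p-values, which were not used.

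After rounding, estimated counts entered the quasi-likelihood test of edgeR 4.0.16 (R 4.3.3, TMM, filterByExpr, glmQLFit, glmQLFTest) on genotype alone. P-values of the 13305 genes were adjusted by Benjamini-Hochberg and called under 0.05. SE was taken as the absolute log2 fold change over the square root of F. FPKM was used for levels between genes and for ratios within a family, which were tested by exact permutation. Named genes were the 8 factors, Rela, the 3 largest called rises and falls of each list, and the 3 genes of most like pattern (mean CPM of at least 10, prior count 2). A few others are named as not called, or because they bear on a count. Alternatives were DESeq2 1.42.0, other scalings and filters, limma 3.58.1 on log2(FPKM + 1), log2(FPKM + 0.1) and, chosen after seeing the data, log2(TPM + 1), a length offset, a replicate block and leaving out each library. The tests were first tried on simulated counts. The main test did not treat libraries of the same replicate number as pairs. Whether such libraries were processed together is not given in the sources used here. A planned comparison of the proteins was not run.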

Additional observations from a re-analysis of the deposited data

How the results depend on the processing

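Pax6, Elf3 and Tfap2b kept their direction and their call in all 17 alternative fits. The calls of the remaining factors, other than Ehf, changed with the scaling or with single libraries. Beyond the shift of all genes, the cause was not tested. On the log2(TPM + 1) scale the median of all genes shifted to -0.28, with 2754 genes higher and 6350 lower, 1 factor higher, 5 lower and 1 other AP-2 gene called. There Klf4 was called at -0.68 (-0.40 relative to that median), Klf5 at -0.37 (-0.09) and Tfap2a at -0.43 (-0.15), Klf6 was not called at 0.15 (0.43), and Ehf reversed to -0.20 (0.08). The share of calls that were higher was 51.3% in the main test, 44.5% with total counts, 44.6% with log2(FPKM + 1) and 30.3% with log2(TPM + 1). Klf4 was also called with total counts (-0.42, or -0.33 relative to the median of all genes) and with both FPKM scales (-0.44 for each). Tfap2b was lowest at 1.44 with log2(TPM + 1) and 1.47 with log2(FPKM + 1). Klf5 reversed to 0.018 with a mean count of at least 50, a filter that removed Pax9 and left 0 other PAX genes called, and Tfap2a reversed to 0.036 with the length offset.

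Without single libraries, Klf4 ranged from -0.46 to -0.17, Klf5 from -0.10 to 0.15 (reversed at 0.010 without WT replicate 1, 0.035 without WT replicate 3 and 0.15 without KO replicate 2), Klf6 from 0.38 to 0.63, and Tfap2a from -0.27 to 0.043 (reversed without KO replicate 2, called without KO replicate 1). The number of factors higher ranged from 1 to 2 and lower from 2 to 4. Calls over all genes ranged from 7282 to 8145, and at the study threshold from 1832 to 2425. The replicate block gave 8083 calls and no factor changed its call under that pairing, whose correlations of deviations were 0.034, -0.01 and 0.061. In TPM, Klf6 ranked 7 and Tfap2a 6 in WT. With Pearson's correlation, 1 of 3 like genes stayed for Pax6, Klf4, Ehf and Tfap2a and 0 of 3 for Klf5, Elf3 and Tfap2b. With 3 libraries a group, differences as small as the intervals of Klf4, Klf5, Ehf and Tfap2a could not be resolved.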
